A study of Arabidopsis thaliana with 9 samples.

Results

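Sepals of the Arabidopsis thaliana mutant gir1-1 were compared directly with sepals of the mutant atml1-3, without passing through the wild type. The comparison used every library of the 2 mutants, 3 of gir1-1 and 3 of atml1-3, which are 6 of the 9 libraries of the series. The other 3 libraries came from wild-type Col-0 plants (WT) and serve below only to describe where WT lay. Each library pooled 200 sepals dissected from 50 closed stage 12 buds, from plants kept at 23 °C under continuous light. The labels name 1 batch for all libraries and do not say whether libraries of a genotype came from separately grown plants, so p-values measure the spread between these libraries, which may be partly technical. Each mutant is represented by 1 allele, in whole sepals that hold epidermal, mesophyll and vascular cells together.

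GIR1 (GL2-INTERACTING REPRESSOR 1) is a small adaptor protein that links HD-ZIP IV transcription factors such as GLABRA2 to the co-repressor TOPLESS. ATML1 is itself an HD-ZIP IV factor, active in the outermost cell layer, where it specifies epidermal identity and promotes the large endoreduplicated giant cells of the sepal. Glucosinolates, which recur below, are sulfur-rich defence compounds of the Brassicaceae. The aliphatic kind is built from methionine in stages, by chain elongation, formation of the core structure and modification of the side chain, and the intact compound becomes toxic only when myrosinases cleave it.

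The libraries held between 15328056 and 20148807 counts, and 3 counts, the smallest amount taken as detectable, corresponded to between 0.146 and 0.191 CPM (counts scaled to library size). Such floors cover counting error only. The table lists 38299 genes, of which 13259 were without counts in all 6 libraries and 18610 had enough counts to be tested. The gir1-1 libraries were further apart from each other than the atml1-3 libraries were. The correlation of log2 CPM across genes was between 0.939 and 0.958 within gir1-1, between 0.960 and 0.974 within atml1-3, and between 0.929 and 0.957 across the genotypes. A principal component analysis of 500 genes, chosen for high variance, gave a leading component with 49.4% of their variance, on which gir1-1 replicate 3 stood at -44.1, against -20.7 and 0.6 for replicates 1 and 2, while the atml1-3 libraries stood at 28.5, 10 and 25.7.

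Counts over the mutated genes were low for one and moderate for the other. GIR1 (AT5G06270) had 12, 10 and 7 counts in gir1-1, against 14, 10 and 17 counts in atml1-3 and 26, 36 and 73 counts in WT. The mutants overlapped, both lay below every WT library, and the log2 difference between them was -0.53 ± 0.57 (SE; edgeR's quasi-likelihood test, Benjamini-Hochberg adjusted p = 0.802). ATML1 (AT4G21750) had 424, 392 and 325 counts in gir1-1, against 124, 345 and 266 counts in atml1-3 and 522, 537 and 872 counts in WT. Its log2 difference of 0.67 ± 0.30 did not pass (edgeR's quasi-likelihood test, Benjamini-Hochberg adjusted p = 0.544), and at the level of CPM the mutants overlapped, with a lowest gir1-1 library of 16.3 CPM and a highest atml1-3 library of 16.8 CPM. The labels do not give the lesion of either allele, so whether counts over a gene report on it is not known here.

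Between the mutants, 42 genes passed the threshold of 0.05 on the adjusted p-value (edgeR's quasi-likelihood test, Benjamini-Hochberg adjustment over all genes tested), which is 0.226% of the genes tested. Of these, 39 were higher in gir1-1 (0.21%) and 3 were lower (0.0161%). In all 42 the libraries of the genotypes did not overlap, which held for 15.2% of all genes tested (7.33% higher and 7.82% lower in gir1-1). In bulk tissue a lower level can mean fewer cells of a type or less RNA per cell, and these cannot be told apart. In 32 of the 39 genes the difference was at least 4-fold, and the median log2 difference of the rises was 4.39, or 4.24 when the 3 genes without a count in atml1-3 are set at their lower bound. Members of the aliphatic glucosinolate lists, of which 30 were tested, made up 14 of the 42 genes, and 24 belonged to no glucosinolate or sulfate list. The mean of the WT libraries lay between the mutants for 38 of the 39 rises, and for the other one, AT1G62975, WT and atml1-3 both had no count. This holds for means, and single WT libraries could differ widely. The genes were also picked for a wide gap between the mutants, into which a WT mean easily falls. No such share was computed over all genes tested. For ESP every WT library lay between the mutants. BAT5 instead had 1.2, 10.1 and 0.998 CPM in WT, against a mean of 1.33 CPM in atml1-3, so its WT mean rested on replicate 2. For AT3G16420 and AT3G43828 the WT mean rested on 2 counts in 1 library, below the amount taken as detectable. The highest library was gir1-1 replicate 1 for 30 of the 39 rises, replicate 2 for 5 and replicate 3 for 4.

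The number of calls depended on single libraries. It was 19 without gir1-1 replicate 1, 102 without gir1-1 replicate 2, 17 without atml1-3 replicate 1, 17 without atml1-3 replicate 2 and 1 without atml1-3 replicate 3, and the gene left in the last case was MLP43. All 42 differences kept their sign in each of these fits, which their lack of overlap between the genotypes all but fixed beforehand. DESeq2 called 311 genes in the same libraries (1.67%), 193 higher (1.04%) and 118 lower (0.634%) in gir1-1, and its calls included all 42. On simulated counts 26.1% of DESeq2's calls were false, against 7.3% of edgeR's, which bears on every DESeq2 call given below. The authors' deposited table lists 320 genes with an adjusted p-value under 0.05 for this pair of genotypes, 211 higher and 109 lower in gir1-1, and these too include all 42.

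**Figure D1:**
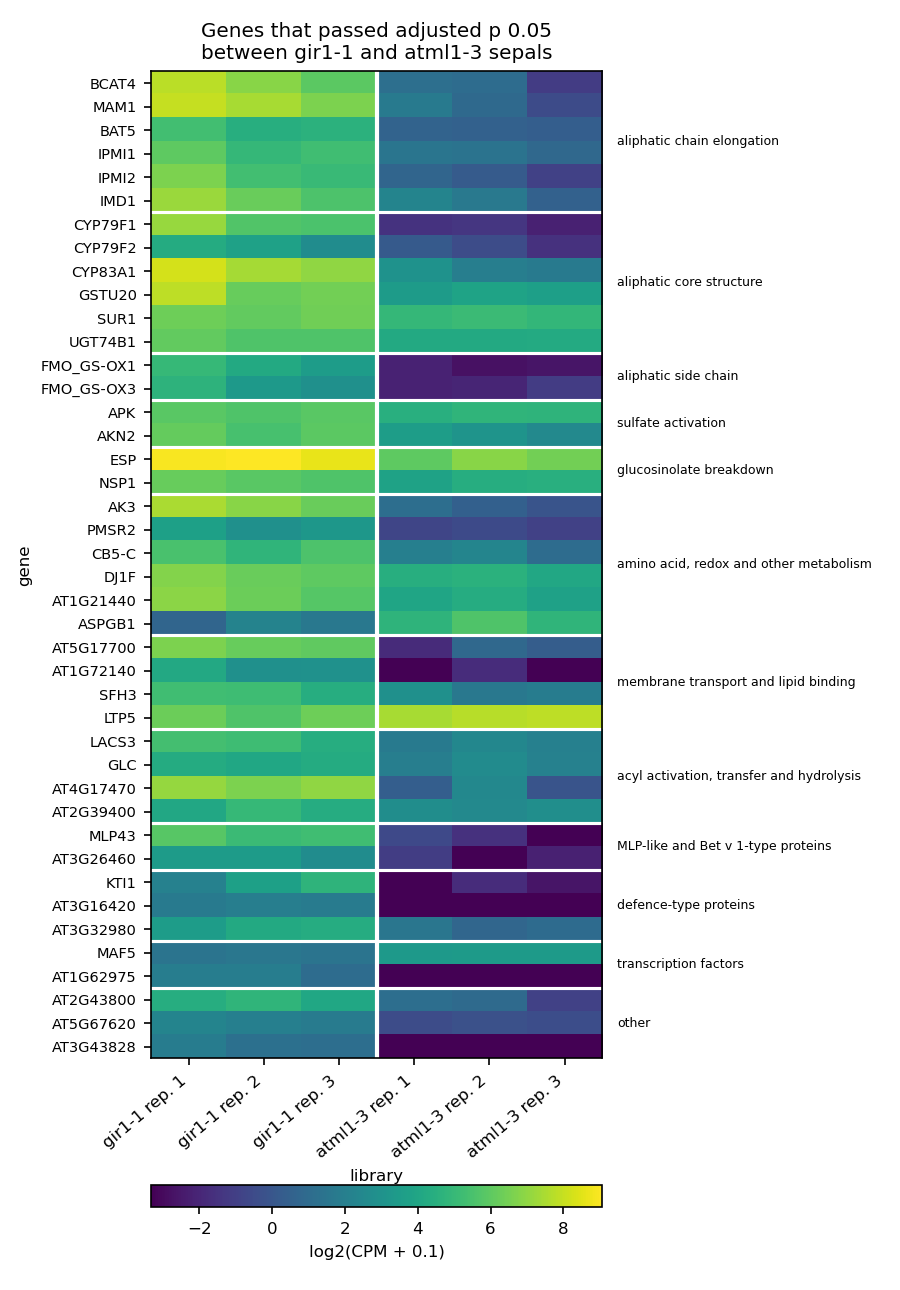
Level of the 42 genes that passed, as log2(CPM + 0.1), in each of the 3 gir1-1 libraries (left) and 3 atml1-3 libraries (right), with genes grouped by known role. The rises fill the left columns with higher values in every group of genes, and ASPGB1, LTP5 and MAF5 show the opposite pattern.

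Chain elongation of methionine had a median log2 difference of 4.65, against 1.49 for the core structure list and 0.21 for the side chain list. Of its 10 genes, all of which were tested, 6 rose in gir1-1 (60%, against 0.21% of all genes tested) and none fell. BCAT4 (AT3G19710), the aminotransferase that takes methionine into the pathway, had 219, 118 and 61.4 CPM in gir1-1, against 2.23, 1.99 and 0.363 CPM in atml1-3. The lowest gir1-1 library thus lay far above the highest atml1-3 library, and the log2 difference was 6.43 ± 0.68 (SE; edgeR's quasi-likelihood test, Benjamini-Hochberg adjusted p = 0.0145). A neighbouring gene, IKU2, overlaps 21.2% of the exonic bases of BCAT4, and the files do not state whether strand was used in counting. MAM1 (AT5G23010), the synthase that adds the carbon unit, had 249, 174 and 97.4 CPM in gir1-1, against 3.37, 1.80 and 0.605 CPM in atml1-3 (log2 difference 6.50 ± 0.59, edgeR's quasi-likelihood test, Benjamini-Hochberg adjusted p = 0.00802). BAT5 (AT4G12030), which carries the keto acids across the chloroplast envelope, averaged 29.0 ± 9.67 CPM in gir1-1 and 1.34 ± 0.128 CPM in atml1-3 (SD, n = 3 each). Its log2 difference was 4.42 ± 0.29 (edgeR's quasi-likelihood test, Benjamini-Hochberg adjusted p = 0.00459).

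At the isomerase and dehydrogenase steps 3 genes rose. IPMI1 and IPMI2, small subunits of the isomerase, had log2 differences of 4.24 ± 0.34 and 5.82 ± 0.58, and IMD1, the dehydrogenase, had 4.87 ± 0.55. IIL1, the large subunit that the isomerase shares with leucine synthesis, did not pass. It had 375, 303 and 246 CPM in gir1-1, against 173, 182 and 200 CPM in atml1-3, so it was abundant in both mutants (log2 difference 0.74, edgeR's quasi-likelihood test, Benjamini-Hochberg adjusted p = 0.303). IMD3, another dehydrogenase, had a difference of -0.15, and IMS2, a second synthase of the elongation cycle, had 5.0 without passing (edgeR's quasi-likelihood test, Benjamini-Hochberg adjusted p = 0.0641).

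Of the 10 tested genes of core structure formation, 6 rose in gir1-1 (60%, against 0.21% of all genes tested) and none fell. CYP79F1 (AT1G16410), which converts elongated methionine to aldoximes, had 2491, 832 and 941 counts in gir1-1, against 4, 6 and 2 counts in atml1-3. The gene was thus near the detection floor in every atml1-3 library, and its log2 difference of 8.43 ± 0.65 was the largest among the genes that passed and had counts in both mutants (edgeR's quasi-likelihood test, Benjamini-Hochberg adjusted p = 0.00459). Its tandem neighbour CYP79F2, 1.2 kb away on chromosome 1, also rose, with 19.8, 13.6 and 6.47 CPM in gir1-1, against 1.02, 0.632 and 0.242 CPM in atml1-3 (log2 difference 4.39 ± 0.58). The 2 sequences are largely distinct, since 1.72% of the 50-base stretches of CYP79F1 and 2.89% of those of CYP79F2 are found at other places in the genome. CYP83A1 (AT4G13770), which oxidises the aldoximes, had 308, 168 and 131 CPM in gir1-1, against 7.83, 3.89 and 3.20 CPM in atml1-3 (log2 difference 5.35 ± 0.47).

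Steps further along the core route, which aliphatic and indolic glucosinolates partly share, differed less. GSTU20, a glutathione transferase, had a log2 difference of 3.36 ± 0.44, the glucosyltransferase UGT74B1 1.62 ± 0.16 and the C-S lyase SUR1 1.27 ± 0.14. UGT74B1 was even among the atml1-3 libraries, with 69.0, 50.7 and 51.1 CPM in gir1-1, against 18.3, 18.5 and 18.7 CPM in atml1-3. The sulfotransferases SOT17 and SOT18, which finish the core, had differences of 1.36 and 0.76 and did not pass (edgeR's quasi-likelihood test, Benjamini-Hochberg adjusted p = 0.0657 and 0.420).

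Side chain modification was split between its members. FMO_GS-OX1, an oxygenase that turns methylthio into methylsulfinyl side chains, had 556, 301 and 229 counts in gir1-1, against 2, 1 and 1 counts in atml1-3, and its paralogue FMO_GS-OX3 had 452, 159 and 147 counts in gir1-1, against 2, 3 and 6 counts in atml1-3. Both rose (edgeR's quasi-likelihood test, Benjamini-Hochberg adjusted p = 0.00459 and 0.0166), FMO_GS-OX3 by 6.05 ± 0.67 on the log2 scale. For FMO_GS-OX1, with 4 counts over the atml1-3 libraries, the ratio of summed counts was 268, with an exact 95% interval from 104 to 985 that covers counting error only. The other 6 tested genes of the stage did not pass. AOP2, annotated as a pseudogene in Col-0, had 181, 49 and 68 counts in gir1-1, against 3, 0 and 0 counts in atml1-3 (adjusted p = 0.0795 in the same edgeR quasi-likelihood test with Benjamini-Hochberg adjustment).

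The MYB factors that activate these enzymes did not pass in edgeR, while DESeq2 called both tested ones, MYB28 and MYB29, higher in gir1-1. MYB29 had 120, 20 and 69 counts in gir1-1, against 0, 0 and 0 counts in atml1-3, at least 22.4-fold higher when set against 3 counts per library. The gir1-1 libraries differed widely from each other, and the adjusted p was 0.122 (edgeR's quasi-likelihood test, Benjamini-Hochberg adjustment). MYB28 had 49.8, 35.8 and 34.8 CPM in gir1-1, against 17.2, 16.8 and 25.8 CPM in atml1-3 (log2 difference 1.01 ± 0.22, edgeR's quasi-likelihood test, Benjamini-Hochberg adjusted p = 0.253). MYB76 was too low to be tested, with 2 counts in gir1-1 replicate 1 and none in the other 5 libraries. Over the 30 tested members of the aliphatic lists, of 33, the median log2 difference was 2.49, against 0.01 over all genes tested, and 28 members had a positive difference.

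**Figure D2:**
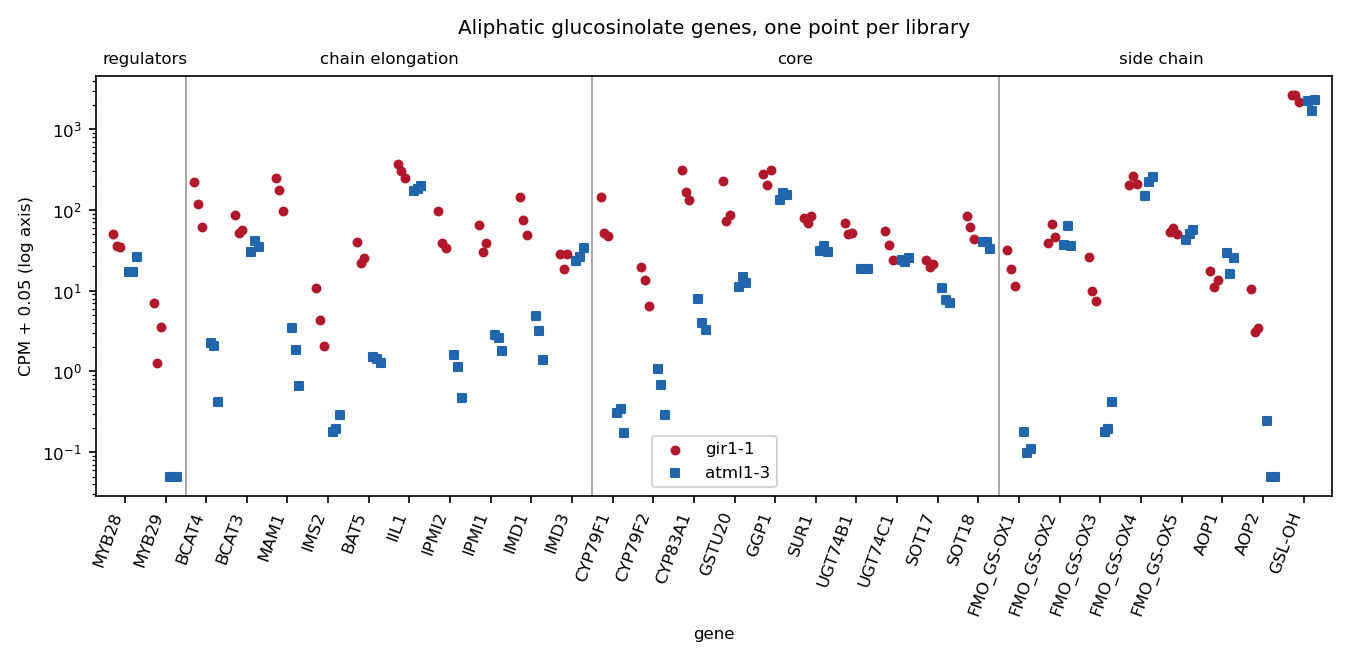
Aliphatic glucosinolate genes in pathway order, as CPM + 0.05 on a log axis, with 1 circle for each gir1-1 library and 1 square for each atml1-3 library. Most chain elongation and early core genes are separated by more than 10-fold, while IIL1, IMD3 and most side chain genes lie close together.

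The stretch of DNA directly before these genes was read for short elements that known regulators bind. AC elements (ACCTACC or ACCAACC, on either strand) are bound by R2R3-type MYB factors, L1 boxes (TAAATGTA or TAAATGCA) by HD-ZIP IV factors and G-boxes (CACGTG) by bHLH factors. An AC element lay within 250 bases before the annotated start of 11 of the 39 genes that rose, or 28.2%, and of 6 of the 14 aliphatic genes, or 42.9%, against 3.81% of 17968 tested nuclear protein-coding genes. The 39 and the 11 include AT3G43828, a pseudogene, which the comparison group does not hold. An L1 box lay there in 2 of the 39 genes (5.13%), APK and NSP1, against 4.52% of all, and in none of the 14 aliphatic genes. A G-box lay there in 4 of the 39 (10.3%), against 7.69% of all. In the 1000 bases before the start, the shares for the 39 genes were 48.7% for AC elements, 30.8% for L1 boxes and 28.2% for G-boxes, against 14.6%, 15.3% and 16.3% of all. For the 14 aliphatic genes these shares were 64.3%, 14.3% and 50.0%, so L1 boxes were near the share of all. Such a match is a description of the letters and not a binding site.

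A few of the 250-base stretches are shown because their genes rose strongly and hold an AC element, the first 3 from the aliphatic route and the last 3 from outside it. They are read 5′ to 3′ on the gene's strand from the TAIR10.1 genome and end at the base before the annotated start. Capitals mark AC elements (GGTAGGT and GGTTGGT are their reverse complements) and G-boxes. The stretches lie at chr4:7992430-7992679 (minus strand) for CYP83A1, chr1:5604794-5605043 (plus) for CYP79F2, chr4:7210557-7210806 (plus) for BAT5, chr2:19151231-19151480 (plus) for CB5-C, chr1:27141515-27141764 (plus) for AT1G72140 and chr5:2362229-2362478 (minus) for PMSR2.
CYP83A1: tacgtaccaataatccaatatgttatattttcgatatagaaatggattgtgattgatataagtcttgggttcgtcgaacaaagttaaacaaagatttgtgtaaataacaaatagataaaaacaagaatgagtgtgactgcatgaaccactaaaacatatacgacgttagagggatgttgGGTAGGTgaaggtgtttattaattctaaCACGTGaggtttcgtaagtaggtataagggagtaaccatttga
CYP79F2: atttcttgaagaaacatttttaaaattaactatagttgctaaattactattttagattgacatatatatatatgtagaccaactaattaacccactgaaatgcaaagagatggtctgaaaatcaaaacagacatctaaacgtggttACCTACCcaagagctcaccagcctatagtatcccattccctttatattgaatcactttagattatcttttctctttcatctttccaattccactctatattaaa
BAT5: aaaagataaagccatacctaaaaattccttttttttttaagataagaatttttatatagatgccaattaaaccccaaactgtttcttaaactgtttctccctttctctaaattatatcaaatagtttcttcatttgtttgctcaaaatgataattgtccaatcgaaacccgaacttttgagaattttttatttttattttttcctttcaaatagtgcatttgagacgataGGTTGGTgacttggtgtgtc
CB5-C: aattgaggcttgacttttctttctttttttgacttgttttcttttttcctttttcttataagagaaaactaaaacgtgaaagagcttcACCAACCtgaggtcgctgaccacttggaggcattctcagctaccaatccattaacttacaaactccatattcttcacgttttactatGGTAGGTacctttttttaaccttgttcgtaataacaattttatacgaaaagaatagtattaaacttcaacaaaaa
AT1G72140: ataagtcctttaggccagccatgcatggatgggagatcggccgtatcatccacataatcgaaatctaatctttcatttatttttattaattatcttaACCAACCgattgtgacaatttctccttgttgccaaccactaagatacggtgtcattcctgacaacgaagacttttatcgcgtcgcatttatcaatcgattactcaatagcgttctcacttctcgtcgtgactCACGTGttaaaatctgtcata
PMSR2: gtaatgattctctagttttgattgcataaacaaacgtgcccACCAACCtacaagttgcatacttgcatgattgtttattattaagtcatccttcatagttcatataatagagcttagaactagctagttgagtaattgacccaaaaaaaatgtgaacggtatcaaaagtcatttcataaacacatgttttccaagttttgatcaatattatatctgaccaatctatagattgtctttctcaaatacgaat
The element began 71 bases before the start in CYP83A1, 104 in CYP79F2, 20 in BAT5 and 209 in PMSR2. CB5-C, a gene outside the glucosinolate lists, held an AC element on each strand, at 162 and 75 bases.

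In sulfate activation, which supplies the sulfotransferases, 2 kinase genes rose. AKN2, an APS kinase also called APK2, had 71.6, 44.1 and 62.1 CPM in gir1-1, against 12.0, 8.37 and 5.62 CPM in atml1-3 (log2 difference 2.78 ± 0.30, edgeR's quasi-likelihood test, Benjamini-Hochberg adjusted p = 0.0166). Its paralogue APK had 59.9, 50.1 and 59.0 CPM in gir1-1, against 22.3, 27.9 and 26.4 CPM in atml1-3, so that its difference of 1.14 ± 0.15 was smaller but equally without overlap. These were the 2 calls among 22 tested genes of sulfate uptake and assimilation (9.09%, against 0.226% of all genes tested). Of the others, APR1, which reduces activated sulfate towards cysteine, had a difference of 2.25 (edgeR's quasi-likelihood test, Benjamini-Hochberg adjusted p = 0.110), and APK3, another kinase of the family, had -0.75.

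Of the genes for glucosinolate breakdown and transport, 2 of 16 tested passed (12.5%, against 0.226% of all genes tested). Both encode specifier proteins, which steer breakdown away from isothiocyanates. ESP (AT1G54040), the epithiospecifier protein, had 492, 537 and 398 CPM in gir1-1, against 64.3, 118 and 84.8 CPM in atml1-3 and 200, 212 and 176 CPM in WT. WT thus lay between the mutants in every library, and the log2 difference between the mutants was 2.42 ± 0.25 (edgeR's quasi-likelihood test, Benjamini-Hochberg adjusted p = 0.0145). Per length, ESP was the most abundant of the genes that rose, at 251 FPKM in gir1-1 and 47.0 FPKM in atml1-3 (means of the authors' deposited values). NSP1, a nitrile specifier protein, averaged 61.3 ± 12.2 CPM in gir1-1 and 19.2 ± 4.68 CPM in atml1-3 (SD, n = 3 each), but 28.2% of the 50-base stretches of NSP1 are found at other places too, so reads may be split with its close relatives. The myrosinase gene TGG2, at 0.14, and the transporter gene GTR2, at 0.17, had log2 differences near 0 and did not pass. ESM1, whose product favours isothiocyanates, had 28.1, 27.8 and 83.4 CPM in gir1-1, against 134, 127 and 61.2 CPM in atml1-3 (log2 difference -1.21, edgeR's quasi-likelihood test, Benjamini-Hochberg adjusted p = 0.496), so the genotypes overlapped. The transporter gene NRT1.9 had a difference of 0.68 (edgeR's quasi-likelihood test, Benjamini-Hochberg adjusted p = 0.519).

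The indolic branch, made from tryptophan, had no call among 13 tested genes of 19. At an unadjusted p under 0.05, 8 of the 13 were higher in gir1-1 and none was lower, against 4.98% and 4.56% of all genes tested. gir1-1 replicate 3 was the highest library for the pair given next. CYP83B1 had 39.8, 64.8 and 151 CPM in gir1-1, against 33.1, 35.4 and 22.3 CPM in atml1-3, and CYP79B2 had 6.20, 9.35 and 47.0 CPM in gir1-1, against 5.60, 4.91 and 0.544 CPM in atml1-3. Without that library 3 of 13 were higher at an unadjusted p under 0.05, and without atml1-3 replicate 3 it was 5 of 13. DESeq2 called 3 of them higher. CYP83B1, CYP79B2 and the other genes named below from lists or families in which they did not pass were chosen after their values were seen.

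Outside glucosinolate and sulfate metabolism, 21 genes rose and 3 fell in gir1-1. The gene with the steadiest call of all was MLP43 (AT1G70890), a major latex protein-like member of the Bet v 1 fold, which binds small hydrophobic ligands in related proteins. It had 990, 569 and 774 counts in gir1-1, against 9, 5 and 0 counts in atml1-3 and 5, 13 and 15 counts in WT. WT was therefore close to atml1-3, and the log2 difference of 7.32 ± 0.58 passed whichever of the 6 libraries was omitted (edgeR's quasi-likelihood test, Benjamini-Hochberg adjusted p = 0.00459 with all libraries). AT3G26460, annotated in the polyketide cyclase and lipid transport superfamily, had 190, 177 and 126 counts in gir1-1, against 6, 0 and 2 counts in atml1-3, and rose (ratio of summed counts 60.8, exact 95% counting interval from 30.6 to 142). Among the other MLP genes, MLP28 had a difference of 3.20 (edgeR's quasi-likelihood test, Benjamini-Hochberg adjusted p = 0.203) and MLP165 had -2.19. Of the 6 tested MLP genes, MLP43 included, 4 were higher (66.7%) and 1 was lower (16.7%) at an unadjusted p under 0.05. The shares over all genes tested were 4.98% and 4.56%. The family median was 2.07, and DESeq2 called 2 members higher.

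A pair of genes for membrane carriers rose. AT5G17700, a MATE-type efflux protein, had 98.6, 73.0 and 65.0 CPM in gir1-1, against 0.191, 1.70 and 1.15 CPM in atml1-3 and 1.72, 4.01 and 2.35 CPM in WT. It rose by 6.22 ± 0.50 on the log2 scale and was the only call among 35 tested MATE genes (edgeR's quasi-likelihood test, Benjamini-Hochberg adjusted p = 0.00459), of which DESeq2 called 2 higher. AT1G72140, a carrier of the major facilitator superfamily, had 306, 119 and 154 counts in gir1-1, against 0, 4 and 0 counts in atml1-3. SFH3, a SEC14-like lipid-binding protein of the phosphatidylinositol transfer family, rose by 2.80 ± 0.38.

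Amino acid metabolism connected to methionine was represented by AK3 (AT3G02020), an aspartate kinase, the enzyme type that opens the route from aspartate to methionine, lysine and threonine. It had 182, 117 and 75.0 CPM in gir1-1, against 2.1, 1.31 and 0.846 CPM in atml1-3 (log2 difference 6.46 ± 0.45, edgeR's quasi-likelihood test, Benjamini-Hochberg adjusted p = 0.00459). Of its annotated exonic bases, 49.7% overlap AT3G02010, on the opposite strand, so reads of the 2 genes cannot be told apart there unless strand was used in counting, which is not stated. PMSR2 (AT5G07460), which reduces oxidised methionine in peptides, had 13.2, 7.30 and 9.17 CPM in gir1-1, against 0.509, 0.584 and 0.423 CPM in atml1-3, and rose by 4.27 ± 0.36. It was the only one of 5 methionine sulfoxide reductases to do so, since PMSR1 and PMSR3 had differences of -0.55 and -0.33 and did not pass. PMSR2 lies 0.45 Mb and MYB29 0.53 Mb from GIR1 on chromosome 5. Of the 417 tested genes within 1 Mb of GIR1, with GIR1 itself left out, only PMSR2 passed. That share, 0.24% against 0.226% over all genes, rests on 1 gene.

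ASPGB1 (AT3G16150), an asparaginase that releases ammonium from asparagine, was the strongest fall. It had 1.55, 4.58 and 3.01 CPM in gir1-1, against 26.9, 50.6 and 27.9 CPM in atml1-3 and 3.72, 17.4 and 13.1 CPM in WT, a log2 difference of -3.53 ± 0.42 (edgeR's quasi-likelihood test, Benjamini-Hochberg adjusted p = 0.0207). The other 2 falls were LTP5 and MAF5. LTP5 (AT3G51600), a lipid transfer protein, had 76.7, 50.1 and 80.1 CPM in gir1-1, against 172, 214 and 225 CPM in atml1-3 and 211, 146 and 108 CPM in WT (log2 difference -1.56 ± 0.21). MAF5 (AT5G65080), a MADS-box factor of the FLC group of floral regulators, had 2.58, 2.91 and 2.66 CPM in gir1-1, against 9.92, 10.8 and 10.5 CPM in atml1-3 and 13.4, 17.7 and 21.5 CPM in WT. Its libraries were the tightest of the 3 falls within each mutant, and it differed by -1.93 ± 0.22 (edgeR's quasi-likelihood test, Benjamini-Hochberg adjusted p = 0.0166). Its relatives MAF3 and AGL31 had differences of -0.15 and -0.23 and did not pass. Of the 6 tested MADS-box genes listed as flowering repressors, 1 went the other way without passing. Its difference was 0.9, with an unadjusted p under 0.05 in edgeR and no overlap. Each of these falls passed with 1 of the 6 possible omissions of a library.

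A further 3 transcripts were present in every gir1-1 library and without a count in every atml1-3 library. AT3G16420, PYK10-binding protein 1, is a jacalin-type lectin that associates with the ER-body myrosinase PYK10, and it had 57, 61 and 68 counts in gir1-1, at least 20.2-fold higher than 3 counts per library. AT1G62975, a bHLH factor, had 64, 59 and 40 counts in gir1-1, at least 18-fold higher. AT3G43828, annotated as a pseudogene, had 62, 37 and 43 counts in gir1-1, at least 15.4-fold higher. All 3 were also nearly absent from WT, where AT3G16420 and AT3G43828 had up to 0.121 and 0.114 CPM and AT1G62975 had none. AT3G16420 lies 10.7 kb from NSP1 on chromosome 3 with no tested gene between them. NAI1, a bHLH factor needed for ER bodies, had 133, 75 and 182 counts in gir1-1, against 0, 8 and 15 counts in atml1-3, but did not pass (edgeR's quasi-likelihood test, Benjamini-Hochberg adjusted p = 0.188).

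The remaining rises outside the glucosinolate lists encode proteins of several kinds. KTI1, a Kunitz trypsin inhibitor, had 73, 215 and 523 counts in gir1-1, against 0, 4 and 1 counts in atml1-3, and replicate 3 was its highest library (ratio of summed counts 160, exact 95% counting interval from 68.3 to 494). The peroxidase gene AT3G32980 had 11.4, 18.1 and 20.1 CPM in gir1-1, against 2.86, 1.61 and 1.93 CPM in atml1-3 (log2 difference 2.96 ± 0.32). CB5-C, a cytochrome b5 that passes electrons to enzymes of the endoplasmic reticulum, had 45.6, 27.6 and 48.9 CPM in gir1-1, against 4.01, 4.96 and 2.00 CPM in atml1-3 (3.47 ± 0.36). All 3 were close to their atml1-3 level in at least 1 WT library.

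Enzymes that handle acyl groups or esters formed a group of 4. AT4G17470, an alpha/beta-hydrolase, had 136, 97.7 and 127 CPM in gir1-1, against 1.21, 5.45 and 0.846 CPM in atml1-3, and rose by 5.54 ± 0.62. A second hydrolase, AT2G39400, rose by 1.86 ± 0.26, the ligase LACS3 by 2.96 ± 0.31 and the acyltransferase GLC by 1.97 ± 0.23. The formin AT2G43800, an actin-binding protein, rose by 3.88 ± 0.50 and the DUF4228 protein AT5G67620 by 2.56 ± 0.35. DJ1F, a glutamine amidotransferase-like protein, and AT1G21440, of the phosphoenolpyruvate carboxylase family, rose by 1.98 ± 0.23 and 2.37 ± 0.30.

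Wider families were then read by the share of members with an unadjusted p under 0.05, since few of their members passed the adjusted threshold. Over all genes tested that share was 4.98% for genes higher and 4.56% for genes lower in gir1-1, or 9.54% in either direction. Xyloglucan endotransglucosylases, which cut and rejoin hemicellulose in growing cell walls, had none higher and 7 of 17 tested genes lower in gir1-1 (41.2%), with a median log2 difference of -0.65 and no call, while DESeq2 called 1 lower. XTH4 had 105, 33.9 and 65.2 CPM in gir1-1, against 603, 230 and 271 CPM in atml1-3 (log2 difference -2.44, edgeR's quasi-likelihood test, Benjamini-Hochberg adjusted p = 0.197). XTH16 had 13.6, 8.36 and 6.97 CPM in gir1-1, against 99.2, 14 and 30.0 CPM in atml1-3, so atml1-3 replicate 1 was far above its fellows. Without that library 2 of 17 genes were lower at an unadjusted p under 0.05. Without atml1-3 replicate 2, the lowest atml1-3 library by summed level, 9 were lower. The family summed to 1030, 966 and 1110 CPM in gir1-1, against 3020, 1120 and 2220 CPM in atml1-3, so atml1-3 replicate 2 lay close to gir1-1. The related expansins, which loosen walls, had 13 of 17 differences below 0, of which 1 had an unadjusted p under 0.05.

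Auxin-responsive genes had more members lower than higher. Of 69 tested, 11 were lower (15.9%) and 1 was higher in gir1-1 at an unadjusted p under 0.05, with no call, 5 lower in DESeq2 and a median of -0.16. GH3.17, which conjugates auxin to amino acids, had 9.70, 13.1 and 14.7 CPM in gir1-1, against 25.1, 23.8 and 31.8 CPM in atml1-3 (log2 difference -1.10, edgeR's quasi-likelihood test, Benjamini-Hochberg adjusted p = 0.156). Lipid transfer proteins had 8 of 34 lower (23.5%) and 1 higher, bHLH factors 11 of 73 lower (15.1%) and 3 higher, and MYB factors outside the glucosinolate lists 7 of 74 lower and none higher. Without 1 library, the lower auxin-responsive genes numbered 7 without atml1-3 replicate 2, the lower lipid transfer genes 5 without gir1-1 replicate 1, atml1-3 replicate 1 or atml1-3 replicate 2, and the lower bHLH genes 6 without atml1-3 replicate 1 and 7 without gir1-1 replicate 3 or atml1-3 replicate 3. Histone genes had 5 of 43 lower (11.6%) and none higher, but none of 44 without atml1-3 replicate 2 and 12 of 46 without atml1-3 replicate 3.

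Anthocyanin genes had low counts, and the late enzymes given here had less in gir1-1. LDOX, a late enzyme of the route, had 3, 3 and 2 counts in gir1-1, against 16, 20 and 23 counts in atml1-3 (log2 difference -2.84, edgeR's quasi-likelihood test, Benjamini-Hochberg adjusted p = 0.203). DFR, the enzyme before it, had 16, 32 and 13 counts in gir1-1, against 96, 67 and 48 counts in atml1-3. TT4, the chalcone synthase that opens flavonoid synthesis, had instead a positive difference of 1.60, with 130, 79.0 and 26.1 CPM in gir1-1, against 15.3, 45.9 and 16.1 CPM in atml1-3. Over the 14 tested flavonoid genes, 5 were lower (35.7%) and 2 higher (14.3%) at an unadjusted p under 0.05, against 4.56% and 4.98% of all genes tested. None passed, and DESeq2 called 1 lower. The lower ones numbered 3 without gir1-1 replicate 3, atml1-3 replicate 1 or atml1-3 replicate 2, and 2 without atml1-3 replicate 3.

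**Figure D3:**
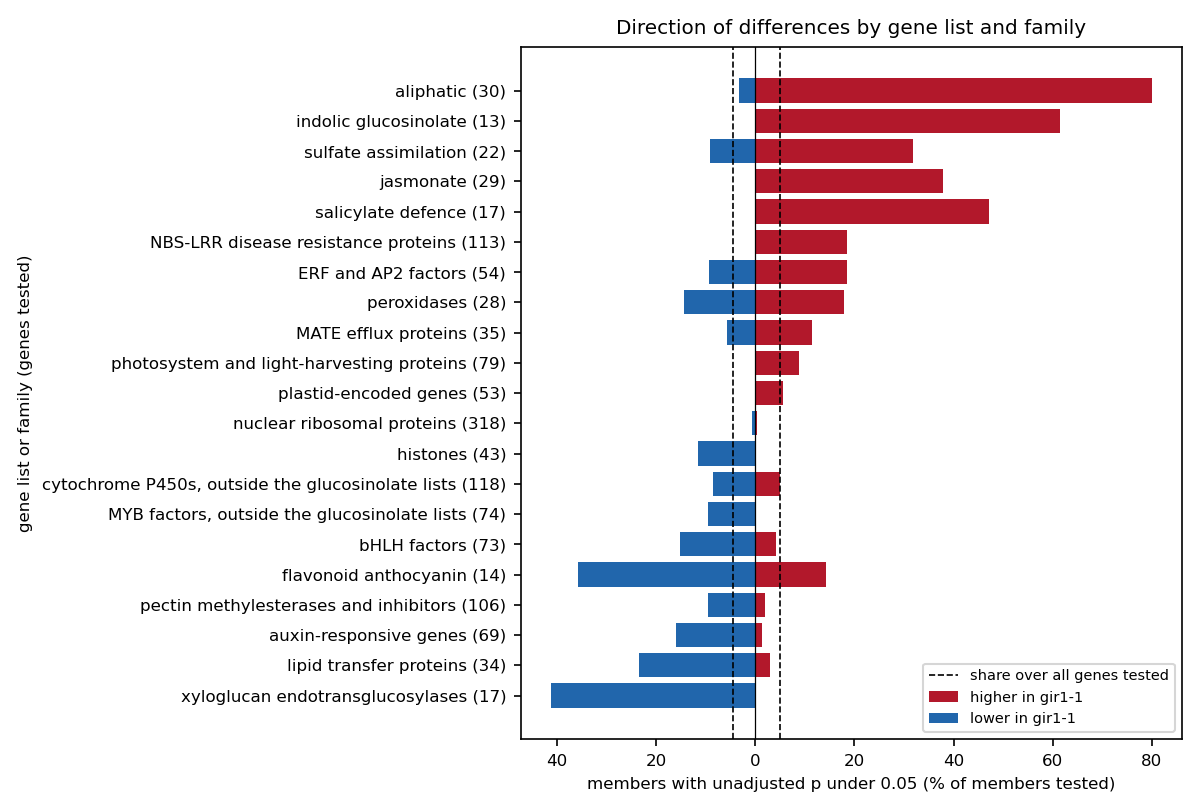
Share of tested members with an unadjusted p under 0.05 in each gene list or family, with members higher in gir1-1 to the right and members lower in gir1-1 to the left. Dashed lines mark the shares over all genes tested, 4.98% higher and 4.56% lower, and numbers in parentheses give the genes tested.

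Immune receptor genes had many small positive differences. Of 113 tested NBS-LRR genes, the intracellular immune receptors of plants, 21 were higher (18.6%) and none was lower at an unadjusted p under 0.05, without a call, with 5 higher in DESeq2 and with a median of 0.23. RPP8 showed the small and even kind of difference, with 107, 100 and 109 CPM in gir1-1, against 63.5, 73.5 and 76.0 CPM in atml1-3 (log2 difference 0.57, edgeR's quasi-likelihood test, Benjamini-Hochberg adjusted p = 0.253). Leaving out 1 library at a time gave between 13 and 27 NBS-LRR genes higher and at most 2 lower, with 13 without atml1-3 replicate 1, 13 without atml1-3 replicate 2 and 27 without gir1-1 replicate 2. The share of all genes that were higher moved with these counts, to 3.39%, 4.01% and 7.08% in the same 3 fits.

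Salicylate response genes depended on single libraries. Their summed level was 214, 160 and 861 CPM in gir1-1, against 156, 169 and 144 CPM in atml1-3, so that gir1-1 replicate 3 stood far above the other 5 libraries. PR5, a pathogenesis-related protein, had 180, 27 and 1107 counts in gir1-1, against 2, 43 and 4 counts in atml1-3. At an unadjusted p under 0.05, 8 of 17 tested genes were higher with all libraries (47.1%, against 4.98% of all genes tested). Without gir1-1 replicate 3 it was 2 of 17 (11.8%, against 4.24%), and the median log2 difference was 0.27 in place of 2.02. The count was 4 of 18 without atml1-3 replicate 1, 4 of 18 without atml1-3 replicate 2, 3 of 18 without atml1-3 replicate 3 and 13 of 18 without gir1-1 replicate 2. None passed the adjusted threshold in edgeR or DESeq2. The jasmonate list had 11 of 29 higher (37.9%, against 4.98% of all genes tested), none lower and no call (3 higher in DESeq2). Without gir1-1 replicate 3 it had 5 of 29 higher and 1 lower. It had 3 higher without atml1-3 replicate 1 and 5 higher without atml1-3 replicate 3. The list had 15 higher without gir1-1 replicate 2, and 10 higher without gir1-1 replicate 1 or atml1-3 replicate 2. Within it OPR3, an enzyme of jasmonate synthesis, had 375, 138 and 558 CPM in gir1-1, against 84.4, 164 and 145 CPM in atml1-3, so the genotypes overlapped. Without gir1-1 replicate 3, 34 of the 35 genes called over the whole table were higher in gir1-1, and the aliphatic lists gave 15 calls.

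Genes of giant cell formation and of the HD-ZIP IV family, to which ATML1 belongs, held no call among 15 and 8 tested members. At an unadjusted p under 0.05 the giant cell list had 1 higher (6.67%) and 2 lower members (13.3%), with 1 lower in DESeq2. The HD-ZIP IV list had 1 higher member (12.5%), with none in DESeq2. Over all genes tested the shares were 4.98% higher and 4.56% lower. The HD-ZIP IV count was 3 of 8 without gir1-1 replicate 3 or atml1-3 replicate 2, and 0 of 9 when any of the other 4 libraries was left out instead. LGO, a cell cycle inhibitor that promotes giant cells, had 14.3, 23.3 and 17.8 CPM in gir1-1, against 51.1, 28.2 and 41.6 CPM in atml1-3, with no overlap but an adjusted p of 0.267 (edgeR's quasi-likelihood test, Benjamini-Hochberg adjustment), and 40.3% of its exonic bases overlap AT3G10527. PDF2, the closest relative of ATML1, had 42.1, 43.0 and 40.4 CPM in gir1-1, against 31.7, 42.4 and 38.6 CPM in atml1-3. GIR2, the paralogue of GIR1, had 30.4, 28.2 and 17.9 CPM in gir1-1, against 6.30, 11.2 and 6.59 CPM in atml1-3, a difference of 1.66 ± 0.30 (edgeR's quasi-likelihood test, Benjamini-Hochberg adjusted p = 0.133). DESeq2 called GIR2 higher in gir1-1 (Benjamini-Hochberg adjusted p = 6.61e-05). The stomatal lineage and trichome lists, with 11 and 4 tested genes, had no member with an unadjusted p under 0.05.

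**Figure D4:**
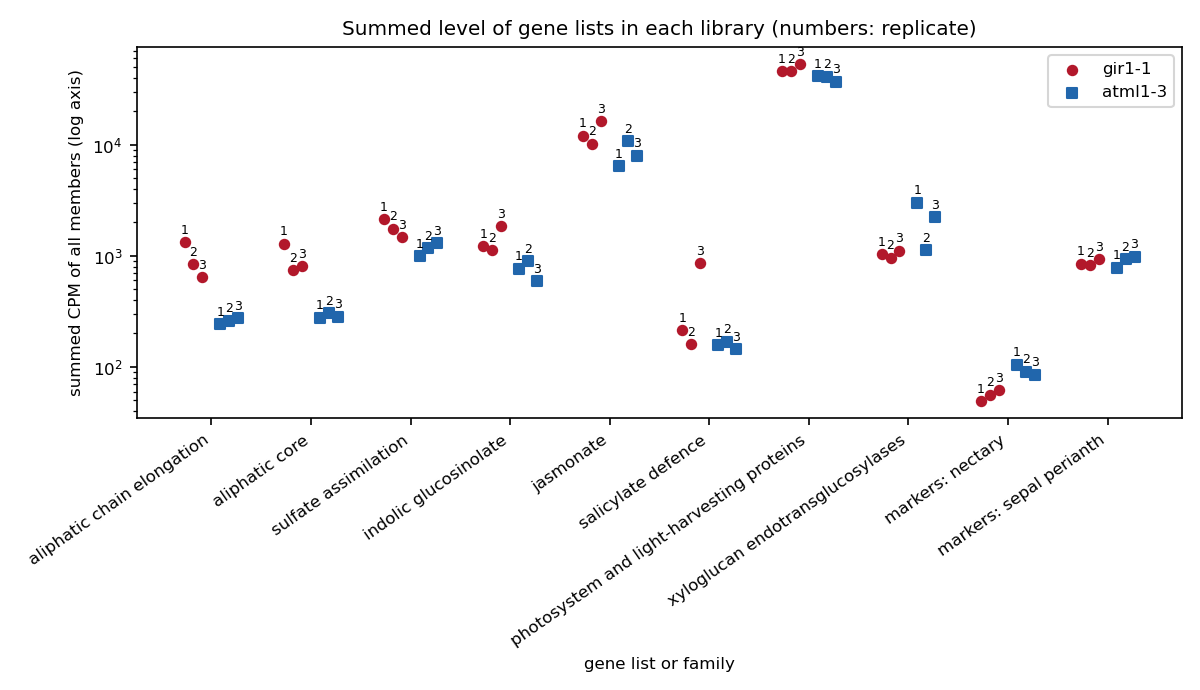
Summed CPM of all members of 10 gene lists or families on a log axis, with circles for the 3 gir1-1 libraries, squares for the 3 atml1-3 libraries and the replicate number above each point. The 2 aliphatic lists separate the genotypes in every library, whereas the salicylate list sets gir1-1 replicate 3 apart at 861 CPM and the sepal markers show no separation. The nectary sum is nearly all from 1 of its members, MYB21.

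Markers of neighbouring floral organs were examined because sepals were dissected from whole buds. The 6 sepal and perianth markers summed to 850, 825 and 932 CPM in gir1-1, against 780, 930 and 985 CPM in atml1-3, and none passed. Nectary markers differed most. CRC, which specifies nectaries and carpels, had 0, 0 and 2 counts in gir1-1, against 19, 39 and 24 counts in atml1-3 and 20, 36 and 16 counts in WT. The nectar genes SWEET9 and cwINV4 had at most 5 counts in any gir1-1 library, against up to 24 and 62 counts in atml1-3. Together with MYB21, the other member of the list, the 4 nectary markers summed to 49.3, 56.1 and 62.0 CPM in gir1-1, against 105, 90.5 and 85.2 CPM in atml1-3. Nearly all of these sums came from MYB21, so they do not report on CRC, SWEET9 and cwINV4. All 3 tested nectary markers were lower at an unadjusted p under 0.05, as were 4.56% of all genes tested. DESeq2 called all 3 lower, as it did 0.634% of all genes, and none passed in edgeR. Of the 10 tapetum and pollen markers, 5 had no count in any of the 6 libraries, and the list summed to 70.8, 258 and 91.2 CPM in gir1-1, against 170, 61.1 and 60.7 CPM in atml1-3. The carpel and ovule markers summed to 17.9, 20.5 and 16.6 CPM in gir1-1, against 31.0, 24.3 and 33.7 CPM in atml1-3, without overlap. All 3 tested members had a negative difference, with a median of -0.74. At an unadjusted p under 0.05, 1 of the 3 was lower, DESeq2 called 1 lower, and none passed in edgeR. The petal and stamen identity genes AP3 and PI summed to 29.4, 46.7 and 47.8 CPM in gir1-1, against 48.4, 57.5 and 70.9 CPM in atml1-3, without overlap, and AP3 was lower at an unadjusted p under 0.05 while neither passed in edgeR or DESeq2. The part of these tissues in the differences above was not tested.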

How the data were processed

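RNA-seq of stage 12 sepals was compared between gir1-1 (3 libraries) and atml1-3 (3 libraries), with 3 WT libraries for description. The authors deposited raw counts per gene, FPKM values, log2 fold changes and adjusted p-values in 1 table, per the file headers. The genome was TAIR10, per the submitters' processing notes, and the aligner, counter and use of strand are not given in the sources used here. Gene starts and ends in the table equalled those of RefSeq on TAIR10.1 for 100% of the 38286 genes matched, of 38299, and 22 gene names that a spreadsheet had turned into dates were replaced by locus. Promoter sequences were read from RefSeq TAIR10.1.

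The deposited counts of the 6 mutant libraries were filtered with filterByExpr, scaled by TMM and tested with edgeR 4.0.16 (quasi-likelihood test, Benjamini-Hochberg adjustment over 18610 genes, threshold 0.05, 4 residual degrees of freedom) in R 4.3.3. CPM values use the TMM-scaled library sizes, while WT CPM values come from a joint scaling of all 9 libraries. Fold bounds of genes at 0 use 3 counts per library. Alternatives used DESeq2 1.42.0, limma 3.58.1 (voom), other scalings and filters, all 9 libraries, a replicate block and each library left out. The script was tested on simulated counts, in 2 draws with 200 changed genes each. There edgeR recovered 60.5% of the changed genes tested, with 7.3% of its calls false. DESeq2 recovered 72.1% with 26.1% false, and voom 57.6% with 7.2% false. Tables were made with pandas 2.3.3 in Python 3.11.15.

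Every gene that passed could be named, as could all members of the aliphatic lists, GIR1 and ATML1; other genes were chosen after their values were seen. Members and lists were chosen with earlier results of these data known. Replicates of a genotype differed by more than sampling noise (chi-square per degree of freedom between 26.31 and 61.17), so none was merged.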

Additional observations from a re-analysis of the deposited data

How the results depend on the processing

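The 42 calls, 39 higher and 3 lower in gir1-1, depended most on the test and on single libraries. DESeq2's Wald test gave 311 calls (193 higher, 118 lower), limma-voom 19 (18 and 1), all genes with any count 66 (10 of them lower), and a fit over all 9 libraries 16 (15 and 1). Leaving out 1 library gave between 1 and 102 calls, between 1 and 88 higher and between 0 and 14 lower. The 14 aliphatic calls became 22 with DESeq2, 6 with limma-voom, 4 with all 9 libraries and between 0 and 16 with 1 library left out, with 0 without atml1-3 replicate 3. The median aliphatic log2 difference of 2.49 was 2.14 with any count, 1.61 with all 9 libraries and between 1.61 and 2.67 with 1 library left out. The cause of these shifts was not tested. Scaling by DESeq2's size factors or by total counts gave 43 calls each. All 42 differences kept their sign in every alternative run. Their libraries did not overlap between the genotypes, so a change of sign was hardly possible. Among the aliphatic list members, GIR1, ATML1 and the genes that passed, signs reversed for 3 genes that did not pass, IMD3 (between -0.26 and 0.03 with 1 library left out, and above 0 without gir1-1 replicate 2 or atml1-3 replicate 3), FMO_GS-OX2 (between -0.10 and 0.48, lowest without gir1-1 replicate 2) and FMO_GS-OX4 (between -0.06 and 0.30, lowest without atml1-3 replicate 1). Weak differences elsewhere also changed sign, since without gir1-1 replicate 2 the positive differences numbered 1 of 3 tapetum and pollen markers, against 3 of 3 with all libraries, and 223 of 321 ribosomal protein genes, against 123 of 318.

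Replicate numbers recur across genotypes, but same-numbered libraries did not deviate together (correlations of deviations across genes -0.006, -0.18 and -0.075). Pairs with unlike numbers ranged from -0.113 to 0.197. With 3 libraries a genotype such correlations cannot decide whether equal numbers mark shared growth or preparation, and the labels do not say. With the replicate block the fit gave 33 calls, of which 27 were among the 42, and 13 aliphatic calls with a median of 2.38. With 3 libraries a genotype, genes of few counts such as GIR1 could show only large differences.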
